A study of Mus musculus with 60 samples.

Results

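The Slc22 and Slco families of organic ion transporter genes were described in 5 organs of mice deficient in Ftsj1, the spleen, liver, kidney, heart and brain, each taken whole. Members were all rows of the poly-A tables whose symbol is Slc22a followed by a number, or Slco followed by a number, a letter and a number. The rule found 40 of 55290 named genes, 25 of them Slc22 genes and 15 Slco genes. Of these, 36 had a mean level of at least 10 normalised counts in at least 1 organ, 17 reached it in all 5 organs, and Slc22a12, Slc22a13 and Slco6b1 were listed at 0 in each of the 5 poly-A tables. A listed 0 was not read as absence of expression, since Slc22a12 is known as a urate transporter gene of kidney and 2 of 18 hepatocyte markers were listed at 0 in liver. Slc22a16, a carnitine transporter gene known mainly from testis, was above 0 but under a level of 10 in every organ.

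Slc22 and Slco proteins sit in the plasma membrane and carry small organic ions across it. Slc22 members move organic cations, organic anions, carnitine and zwitterions, and the anion carriers of the kidney proximal tubule take drugs, toxins and metabolites from the blood for excretion in urine. Slco proteins, the organic anion transporting polypeptides (OATPs), take up bile acids, steroid and thyroid hormone conjugates and prostaglandins, and are best known from the blood side of hepatocytes.

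The libraries came from 6 male mice aged 4 months, 3 carrying the label Ftsj1_DF and 3 the label WT, with no treatment and free access to food. Ftsj1 encodes a methyltransferase that acts on the anticodon loop of certain tRNAs. The labels do not describe the allele behind Ftsj1_DF, and they place the mice in litters of 2 and 4 brothers with both genotypes in each litter. The same 6 mice gave all 5 organs, so each poly-A comparison rests on 6 of 30 libraries and the organs are not independent of each other.

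The deposited tables hold 1 mean level, 1 fold change and 1 standard error per gene, and no value per mouse, so whether the mice of the 2 genotypes overlapped could not be read for any gene. The depth per library is unknown. Ftsj1 itself was lower in all 5 organs, with log2 fold changes from -3.51 to -2.70 in the authors' deposited table. That fixed the direction of every difference as deficient minus wildtype. Hepatocyte markers summed to 136109 ppm of the liver table and proximal tubule markers to 43076 ppm of the kidney table, where ppm is a gene's share of the table's summed mean level and 10000 ppm are 1% of it.

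The members that changed most in kidney lie in a block of related genes on chromosome 19 and in the Slco1 block on chromosome 6. Promoters of 6 of them are shown, namely the 3 that rose in kidney (Slc22a19, Slc22a26 and Slc22a29), the neighbours Slc22a27 and Slc22a28 that did not pass, and Slco1a1, which fell. The sequences are from RefSeq (GRCm38.p6) and run 5′ to 3′ over 300 bases, from 250 before the start of the gene to 50 after it. Capitals mark TTCNNNGAA, the palindrome that STAT transcription factors are known to bind. The submitters' processing notes name GRCm39, so these coordinates are those of the reference table and not of the deposited files.
Slc22a19, chr19:7711261-7711560, minus strand: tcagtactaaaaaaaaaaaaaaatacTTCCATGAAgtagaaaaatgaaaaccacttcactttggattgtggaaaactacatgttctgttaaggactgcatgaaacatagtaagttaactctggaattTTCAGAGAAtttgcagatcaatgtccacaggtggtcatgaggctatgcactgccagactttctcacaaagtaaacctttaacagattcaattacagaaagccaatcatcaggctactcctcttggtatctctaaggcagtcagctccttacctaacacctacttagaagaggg
Slc22a26, chr19:7802618-7802917, minus strand: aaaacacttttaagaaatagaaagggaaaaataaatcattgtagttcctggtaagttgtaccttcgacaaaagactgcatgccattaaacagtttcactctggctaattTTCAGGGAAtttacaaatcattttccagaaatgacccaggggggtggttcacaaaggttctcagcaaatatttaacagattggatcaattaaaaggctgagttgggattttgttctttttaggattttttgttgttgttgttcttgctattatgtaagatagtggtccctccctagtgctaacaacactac
Slc22a29, chr19:8218851-8219150, minus strand: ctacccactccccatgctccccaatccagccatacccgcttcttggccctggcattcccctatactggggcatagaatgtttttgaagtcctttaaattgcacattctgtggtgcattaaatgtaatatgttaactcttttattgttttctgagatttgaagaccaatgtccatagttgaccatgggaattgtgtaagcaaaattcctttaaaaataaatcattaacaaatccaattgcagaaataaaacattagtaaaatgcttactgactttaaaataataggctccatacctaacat
Slc22a27, chr19:7965978-7966277, minus strand: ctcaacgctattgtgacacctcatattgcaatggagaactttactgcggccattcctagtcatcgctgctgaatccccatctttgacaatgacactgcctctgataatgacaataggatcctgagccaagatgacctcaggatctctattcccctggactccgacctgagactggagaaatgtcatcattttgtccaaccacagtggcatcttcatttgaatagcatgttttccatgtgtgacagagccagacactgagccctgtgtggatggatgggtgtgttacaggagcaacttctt
Slc22a28, chr19:8131933-8132232, minus strand: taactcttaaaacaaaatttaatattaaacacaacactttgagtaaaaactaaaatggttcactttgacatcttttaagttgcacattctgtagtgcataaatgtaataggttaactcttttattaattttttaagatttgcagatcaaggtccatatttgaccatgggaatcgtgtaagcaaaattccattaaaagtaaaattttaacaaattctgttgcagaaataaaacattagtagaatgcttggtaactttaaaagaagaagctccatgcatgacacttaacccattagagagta
Slco1a1, chr6:141946913-141947212, minus strand: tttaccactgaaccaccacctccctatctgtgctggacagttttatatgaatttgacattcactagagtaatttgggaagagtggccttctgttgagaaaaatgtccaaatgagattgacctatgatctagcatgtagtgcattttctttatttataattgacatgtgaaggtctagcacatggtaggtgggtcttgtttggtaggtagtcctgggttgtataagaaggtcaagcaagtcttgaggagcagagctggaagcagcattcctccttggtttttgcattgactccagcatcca

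In the promoters shown, TTCNNNGAA occurred at 2 places in that of Slc22a19, at positions -224 and -123 from the start, and at 1 place in that of Slc22a26, at position -141. The windows of Slc22a29, Slc22a27, Slc22a28 and Slco1a1 did not hold these letters. Promoters were found for 35 of the 40 members, 40 windows in all, since some genes have several starts. Searched on both strands, TTCNNNGAA was in 8 of these 40 windows, or 20.0%, against 8.30% of 32851 mouse promoters of the same length. Besides Slc22a19 and Slc22a26, these windows belonged to Slc22a15, Slc22a16, Slco1a5, Slco1b2 and Slco2b1. None of the latter members was called risen in any organ, Slco1b2 fell in heart, and Slc22a16 had no adjusted p. TATAAA, the TATA box, was also in 8 windows, against 13.6% of all promoters. AGGTCA, a half-site of nuclear receptors, was in 5 windows, or 12.5%, against 16.3%. Neighbouring genes share ancestry and so part of their sequence, and these matches describe letters and not bound sites.

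Relatedness also bears on the counts. The longest reading frames of Slc22a19 and Slc22a26 to Slc22a30 were 71.0% to 98.8% identical over 15 pairs, highest for Slc22a28 with Slc22a30, whose promoters were 94.1% identical. Of all 50-base stretches of its transcripts, Slc22a28 shared 53.9% with other genes, Slc22a30 shared 34.2%, Slc22a27 shared 29.9% and Slc22a29 shared 28.7%. Slc22a5 and Slc22a21, neighbouring carnitine transporter genes, shared 26.3% and 22.0%. The counting of reads that match several genes was not given in the sources used here. The values of these 6 genes are therefore uncertain. Slc22a26 shared 6.21%, Slco1a6 shared 6.22%, Slco1a1 shared 1.64%, Slc22a19 shared 0.985%, and Slc22a7, Slc22a3 and Slco1b2 shared none. In all, 30 members shared less than 5%.

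Transporter transcripts made up 0.448% of the summed mean level in kidney and 0.301% in liver. They came to 841 ppm in brain, 328 ppm in spleen and 250.8 ppm in heart. The level was highest in kidney for 22 members, in liver for 6, in brain for 5, and in heart and spleen for 2 each. The tables were normalised separately, so levels across organs are a description and were not tested, and a whole organ cannot tell fewer cells of a type from less RNA per cell.

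**Figure D1:**
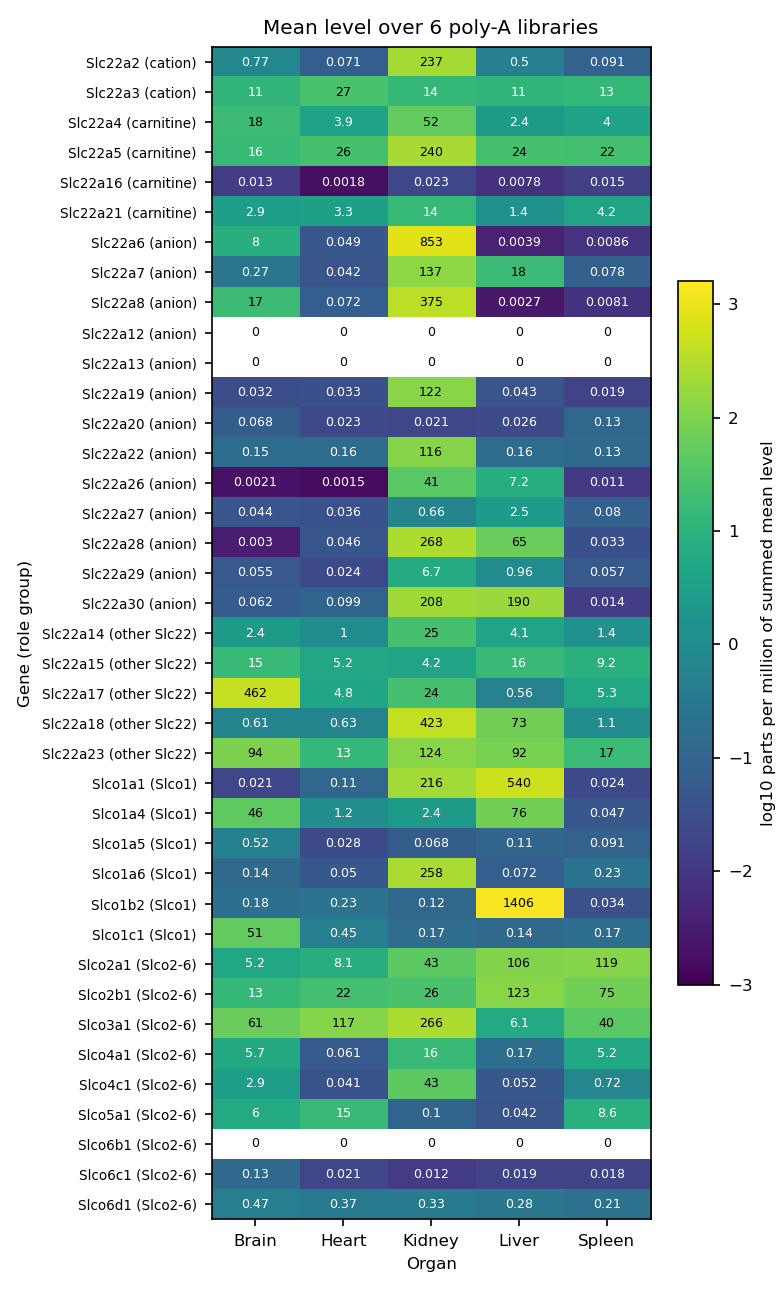
Mean level of members (rows, grouped by role) in 5 organs (columns), in ppm of the summed mean level of the organ's poly-A table. Colour is on a log10 scale, the printed number is on the linear scale, and white cells are genes listed at 0. The brightest cells are Slco1b2 in liver (1406 ppm), Slc22a6 in kidney (853 ppm) and Slco1a1 in liver (540 ppm).

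Each organ had its own leading transporter. In kidney, Slc22a18, an imprinted gene of unsettled substrate, stood at 249 ppm per kilobase, the anion transporter gene Slc22a6 at 214, Slc22a28 at 134 and Slc22a8, a second anion transporter of the tubule's blood side, at 96.0 ppm per kilobase. Liver was led by Slco1b2, the OATP of the hepatocyte's blood side, at 285 ppm per kilobase, with Slco1a1 at 102. The brain's leading member was Slc22a17, which encodes a receptor for lipocalin-2, at 102 ppm per kilobase and 54.9% of the family's level there. It was followed by Slc22a23 at 14.7 and the thyroid hormone transporter gene Slco1c1 at 9.92 ppm per kilobase. In heart Slco3a1 led at 13.8 ppm per kilobase, before the carnitine transporter gene Slc22a5 at 8.32 and Slc22a3, a cation transporter gene, at 5.90. In spleen Slco2b1, a steroid conjugate transporter gene, stood at 12.5 and Slco2a1, the prostaglandin transporter gene, at 8.81 ppm per kilobase. Without division by length the leading member changed in 2 organs, with Slc22a6 at 853 ppm before Slc22a18 at 423 ppm in kidney, and Slco2a1 at 119 ppm before Slco2b1 at 74.6 ppm in spleen. The deposited means carry no error of their own, so which neighbours in these orders differ beyond their spread could not be read.

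Several members had most of their level in 1 organ. Kidney held 99.9% of the summed level over the 5 organs for Slc22a19, 99.8% for Slco1a6, 99.5% for Slc22a22, a prostaglandin transporter gene of mouse kidney, 99.4% for the cation transporter gene Slc22a2 and 99.1% for Slc22a6. Liver held 99.96% for Slco1b2, and brain 98.2% for Slco1c1 and 93.1% for Slc22a17. Others were spread more evenly. Slc22a15 stood at 15.8 ppm in liver and 14.7 ppm in brain, and Slco2a1 at 119 ppm in spleen and 106 ppm in liver.

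In kidney, 3 organic anion transporter genes rose in the deficient mice and 2 OATP genes fell. These were 5 of 34 members with an adjusted p, where 0.987% of 23313 genes passed in either direction, 0.339% risen and 0.648% fallen. Another 29 members did not pass, 3 had no adjusted p and 3 were listed at 0. An unadjusted p under 0.05 was reached by 11 members, 4 above and 7 below 0, against 3.99% of all genes. The median log2 fold change of the 34 members at a level of 10 or more was -0.10, with 23 below 0, beside 0.0051 for all genes at that level.

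Slc22a26, an anion transporter gene of rodents, had an implied mean of 9176 normalised counts in wildtype and 18499 in deficient kidney, computed from the mean level and the fold change. Its log2 fold change was 1.01 ± 0.11 (standard error) in the authors' deposited table, a 2.02-fold rise with an adjusted p of 8.83e-16. Slc22a29, also of the chromosome 19 block, went from an implied 1502 to 3008 normalised counts. Its log2 fold change in the authors' deposited table was 1.00 ± 0.14, with an adjusted p of 5.21e-09. Slc22a19, which encodes an exchanger of organic anions for dicarboxylates in the tubule, went from an implied 32007 to 50551 normalised counts, a rise of 0.66 ± 0.10 on the log2 scale in the authors' deposited table (adjusted p 4.23e-08). All 3 lie in the chromosome 19 block.

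Along the chromosome 19 block the order in the GENCODE M21 annotation was Slc22a19, Slc22a26, Slc22a27, Slc22a28, Slc22a29, Slc22a30, Slc22a8 and Slc22a6, with 4 pseudogenes between them. Of the 8 members 3 rose in kidney and 5 did not pass. Slc22a27, which lies between Slc22a26 and Slc22a29, had 0.42 ± 0.20 (adjusted p 0.747) in the authors' deposited table. Slc22a28 and Slc22a30 had -0.088 ± 0.10 and -0.26 ± 0.12 in the authors' deposited table. Per length, the kidney level of these 2 was 134 and 61.7 ppm per kilobase, against 13.9 for Slc22a26, 2.94 for Slc22a29 and 0.306 for Slc22a27. None of the 4 pseudogenes passed, and 2 of them were listed at 0.

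**Figure D2:**
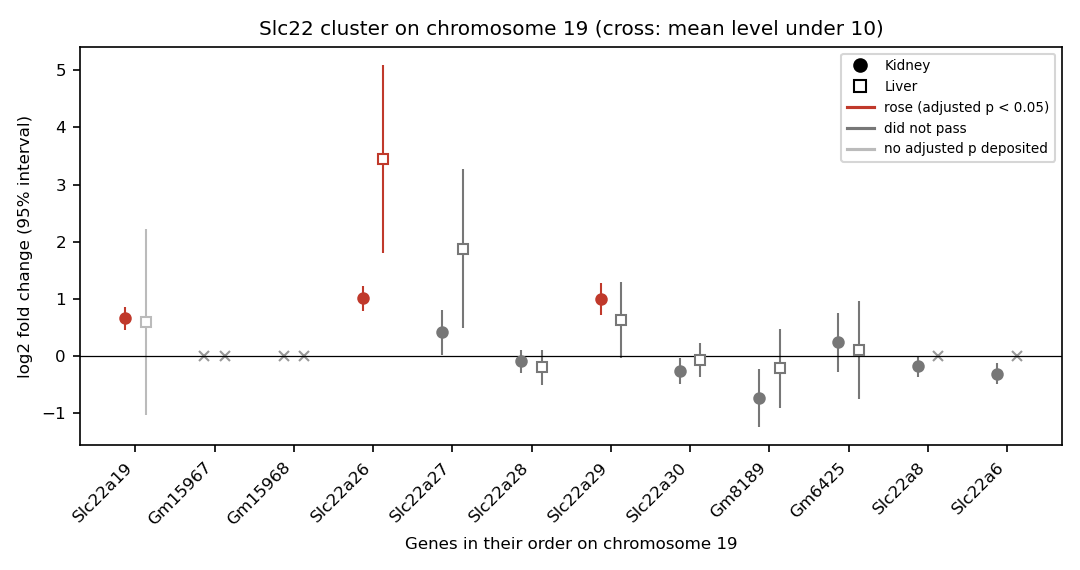
Log2 fold change (y axis, deficient minus wildtype, with 95% interval) of the genes of the chromosome 19 block in their order on the chromosome (x axis), for kidney (filled circles) and liver (open squares). Red marks an adjusted p under 0.05, pale grey no adjusted p, and crosses genes at a mean level under 10, drawn at 0 with no value. Slc22a19, Slc22a26 and Slc22a29 stand above 0 in kidney, and Slc22a26 in liver.

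The anion transporter genes best known from kidney did not pass. Slc22a6, known for p-aminohippurate uptake, had an implied mean of 318481 normalised counts in wildtype and 257703 in deficient kidney. The authors' deposited table gave it -0.31 ± 0.093 with an adjusted p of 0.0911. Slc22a8 had -0.18 ± 0.096 (adjusted p 0.932) and Slc22a22 -0.28 ± 0.096 (adjusted p 0.239) in the authors' deposited table. Slc22a7, which carries anions such as prostaglandins, had 0.24 ± 0.18 in the authors' deposited table. Its interval reached from -0.11 to 0.60, and its standard error exceeded that of 98.9% of genes at a level within a factor of 2.

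Among the OATP genes of kidney, Slco1a1, an uptake carrier of steroid and bile acid conjugates that is known to be higher in male than in female mice, fell most. Its implied mean was 105396 normalised counts in wildtype and 40866 in deficient kidney. The log2 fold change in the authors' deposited table was -1.37 ± 0.28, with an adjusted p of 0.000379. That standard error was larger than those of 99.3% of genes at a level within a factor of 2, and the tables do not show which mice this spread comes from. Slco1a6, its neighbour in the block, fell by 0.36 on the log2 scale (standard error 0.089, adjusted p 0.00903) in the authors' deposited table, from an implied 97801 to 76349 normalised counts. All 6 members of the Slco1 group were below 0 in kidney, with a median of -0.28, and 4 of them did not pass. Slco1a4 had -0.20 ± 0.12 at a mean level of 821 normalised counts in the authors' deposited table. Slco1b2, Slco1c1 and Slco1a5 had low mean levels of 39.1, 56.7 and 22.9. Their values in the authors' deposited table were -1.24 ± 0.47, -0.063 ± 0.43 and -0.20 ± 0.59. The other genes of this block on chromosome 6 gave no call, but most of their values had no adjusted p. Gm5724 had one in kidney alone, and Gm30784 and Gm6614 had one in kidney and liver alone. Gm18159 and Gm20400 were listed at 0 in each organ.

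**Figure D3:**
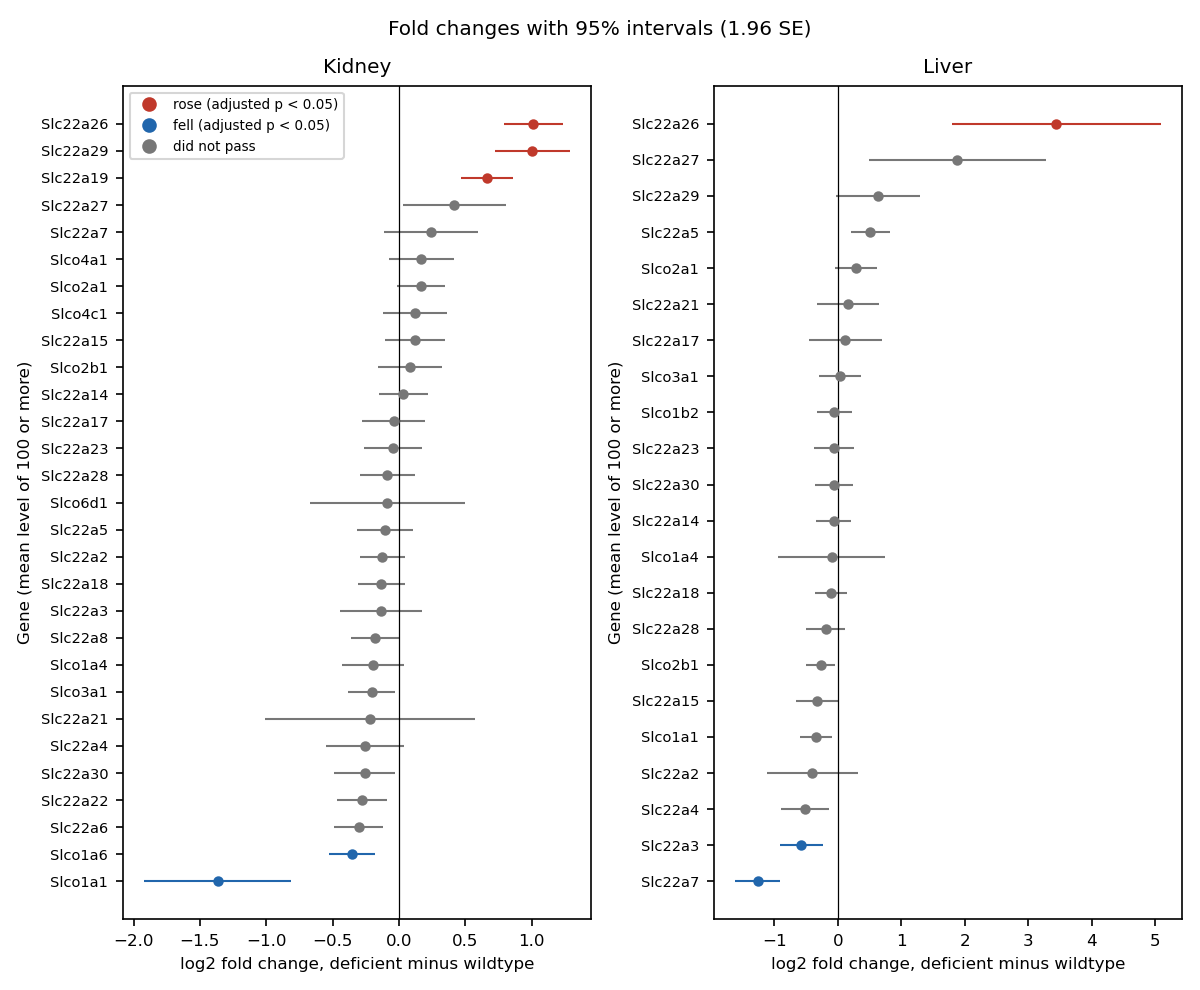
Log2 fold change (x axis, deficient minus wildtype, with 95% interval) of members shown with a mean level of 100 or more in kidney (left) and liver (right), ordered by fold change. Red marks a rise and blue a fall at an adjusted p under 0.05. Slco1a1 and Slc22a26 stand at the ends of the kidney order, and Slc22a7 and Slc22a26 at those of liver.

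Cation and carnitine transporter genes did not pass in kidney. Slc22a2, which takes up cations on the blood side of the tubule, had -0.13 ± 0.087 in the authors' deposited table. For Slc22a2 the interval reached from -0.30 to 0.044. Slc22a5, which recovers carnitine from urine, had -0.11 ± 0.11 in the authors' deposited table. Its neighbour Slc22a21 had a standard error of 0.40, larger than those of 99.4% of genes of like level. Slco3a1, an OATP gene of many tissues, had -0.21 ± 0.090 (adjusted p 0.600) in the authors' deposited table, and Slco4c1, an OATP gene of the tubule, 0.12 ± 0.12.

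Other kidney transporter genes changed in both directions. Of 23 genes that work beside the 2 families in uptake or efflux, Slc10a2, the apical bile acid transporter gene, rose and Slc13a3, a dicarboxylate transporter gene, fell, by the authors' deposited table at 0.75 ± 0.10 and -0.48 ± 0.079. The other 21 did not pass, and the list's median was -0.12. Proximal tubule markers had a median of -0.0017 with 1 of 15 rising (Gatm of creatine synthesis), and their implied sums were 44427 ppm in wildtype and 41725 ppm in deficient kidney. Loop, distal and duct markers had 0 of 9 passing in DESeq2's test. Pancreatic acinar markers were above 0 for 9 of 9 measured genes, with a median of 8.19. Of the 10 on the list, 1 did not pass, 8 had no adjusted p and 1 was listed at 0. Their implied sums were 67.0 ppm in wildtype and 105 ppm in deficient kidney. Neutrophil markers had 2 of 11 rising (S100a8 and S100a9). The part of these cells in the transporter values was not tested.

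In liver, Slc22a26 rose and Slc22a7 and Slc22a3 fell, with 25 members not passing, 9 without an adjusted p and 3 listed at 0. The 3 calls were among 28 members with an adjusted p, where 2.29% of 18263 genes passed, 0.887% risen and 1.41% fallen. By unadjusted p under 0.05 there were 10 members, 3 above and 7 below 0, against 6.63% of all genes. The median over 32 members at a level of 10 or more was -0.06, beside 0.0058 for all genes.

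Slc22a7, an anion transporter gene at 137 ppm in kidney and 17.7 ppm in liver, fell in liver from an implied 5988 to 2491 normalised counts. Its log2 fold change was -1.27 ± 0.18 in the authors' deposited table, with an adjusted p of 3.33e-09. Slc22a26 had an implied mean of 288 normalised counts in wildtype and 3141 in deficient liver. The authors' deposited table gave it 3.45 ± 0.84 with an adjusted p of 0.00402, and its standard error was larger than those of 99.7% of genes of like level, so the 10.9-fold difference has a 95% interval from 1.80 to 5.09 on the log2 scale. Its neighbour Slc22a27 had a similarly wide 1.88 ± 0.71 (adjusted p 0.173) in the authors' deposited table, and a standard error above those of 99.2% of such genes. Slc22a29 had 0.63 ± 0.34 in the authors' deposited table and did not pass. Slc22a28 and Slc22a30, of the same block, had -0.19 ± 0.16 and -0.06 ± 0.15 in the authors' deposited table.

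Slc22a3, a transporter of monoamines and other cations, fell by 0.57 on the log2 scale in the authors' deposited table (standard error 0.18, adjusted p 0.0483), from an implied 3223 to 2165 normalised counts. That call was lost when p-values were adjusted without independent filtering (adjusted p 0.0837) or over the 5 organs together (0.178). Of the carnitine transporter genes, Slc22a5 had 0.51 ± 0.16 with an adjusted p of 0.0500063 in the authors' deposited table, just outside the threshold of 0.05, and shares 26.3% of its transcript stretches with other genes. Slc22a4, which carries ergothioneine, had -0.52 ± 0.19 (adjusted p 0.162) in the authors' deposited table. Of 9 matched genes of the carnitine system, such as Cpt1a and Slc25a20, none passed in any organ by DESeq2's adjusted p.

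The OATP genes that lead the liver did not pass. Slco1b2 stood at an implied 343146 normalised counts in wildtype and 330344 in deficient liver. Its log2 fold change in the authors' deposited table was -0.055 ± 0.14, with an interval from -0.33 to 0.22 that does not reach the fall of Slc22a7. Slco1a1 had -0.34 ± 0.13 (adjusted p 0.176) and Slco1a4, a bile acid and digoxin carrier gene, -0.097 ± 0.43 in the authors' deposited table. The standard error of Slco1a4 was above those of 98.4% of genes of like level. Slco2b1 had -0.27 ± 0.12 (adjusted p 0.310) in the authors' deposited table.

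Lists of sex-biased liver genes, chosen with earlier results of these data known, were read in the same tables. In liver, 0.887% of all genes with an adjusted p rose and 1.41% fell. Of 11 genes known to be higher in male liver, 5 fell and none rose, with a median of -0.68; Susd4, Cyp2d9, Serpina12 and Cyp2u1 had -0.91, -0.74, -1.84 and -0.96 on the log2 scale in the authors' deposited table. Of 14 genes known to be higher in female liver, 2 rose, among them Fmo2 with 0.81, and 1 fell (Ntrk2 with -1.37) in the authors' deposited table, and 11 of 12 at a level of 10 or more were above 0, with a median of 0.65. Bile acid synthesis genes had 0 of 11 passing in liver, and the regulators, among them Hnf4a, Nr1h4 and Stat5b, had 0 of 14 passing in each of the 5 organs. Of the 14 regulators, 4 had no adjusted p in brain, 4 in heart and 1 in spleen, where 1 more was listed at 0. Pancreatic acinar markers summed to an implied 69.1 ppm in wildtype and 3015 ppm in deficient liver. They were above 0 for 9 of 9 measured genes, with a median of 5.86. Of the 10 on the list, 5 did not pass, 4 had no adjusted p and 1 was listed at 0. Hepatocyte markers stood at an implied 137520 ppm in wildtype and 134697 ppm in deficient liver. Macrophage markers were above 0 for 11 of 11 genes with 1 rising (Vsig4). The part of other cells or of sex-biased expression in the transporter values was not tested.

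In heart, Slco1b2 was the 1 member called, and it fell. Of 29 members with an adjusted p, 28 did not pass, while 0.541% of 21428 genes passed in either direction, 0.21% risen and 0.331% fallen. An unadjusted p under 0.05 was reached by 2 members, both below 0, against 5.71% of all genes. Slco1b2 had a mean level of 32.7 normalised counts, an implied 63.7 in wildtype and 1.60 in deficient heart. The authors' deposited table gave it -5.31 ± 1.33 with an adjusted p of 0.0226. That standard error was larger than those of 97.4% of genes at a level within a factor of 2. Slco1a1, a second hepatocyte OATP gene, had -3.06 ± 1.32 (adjusted p 0.453) at a mean level of 15.9 in the authors' deposited table.

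Hepatocyte markers were below 0 in heart for 16 of 16 measured genes, with a median of -2.70 and none passing by DESeq2's test. Serpina3k and Hpd, the remaining 2 of the 18, were listed at 0. Their implied sums were 37.5 ppm in wildtype and 9.06 ppm in deficient heart, and albumin (Alb) had -2.84 ± 2.53 in the authors' deposited table. Lung epithelium markers were below 0 for 8 of 8 genes as well, at 12.7 and 0.494 ppm. Of these 8, 2 did not pass and 6 had no adjusted p. Other lists shared the sign at a level of 10 or more. Proximal tubule markers were below 0 for 14 of 14 genes (median -0.70). Meninges markers were below 0 for 8 of 8 (median -0.23), and adipocyte and choroid plexus markers each for 6 of 7. Endothelium markers were above 0 for 10 of 10, neutrophil markers for 7 of 8, and macrophage and brain endothelium markers each for 8 of 11. The part of hepatocyte RNA in the value of Slco1b2 was not tested. The members that lead the heart did not pass, among them Slco3a1 with 0.089 ± 0.15, Slc22a3 with 0.12 ± 0.25 and Slc22a5 with -0.14 ± 0.21 in the authors' deposited table. At a level of 10 or more, 17 of 23 members were below 0 with a median of -0.26, beside -0.0019 for all genes.

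**Figure D4:**
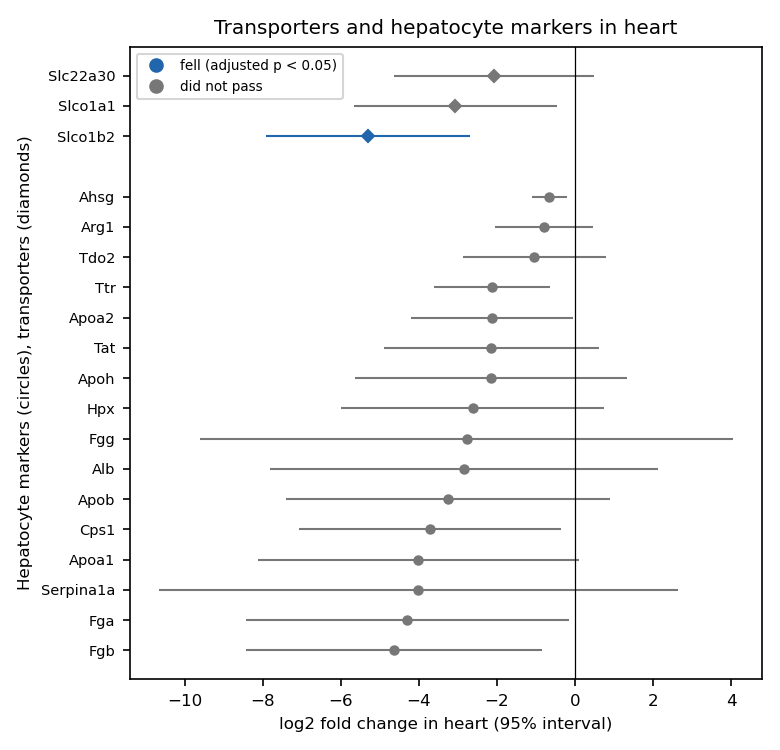
Log2 fold change in heart (x axis, deficient minus wildtype, with 95% interval) of transporter genes (diamonds, top) and of 16 hepatocyte markers at a mean level of 10 or more (circles). Blue marks an adjusted p under 0.05, reached by Slco1b2. The 16 markers lie below 0 with intervals that mostly include it.

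No member passed in brain or spleen by DESeq2's adjusted p. In brain 28 members had an adjusted p, and 0.0607% of 21406 genes passed, 0.014% risen and 0.0467% fallen. In spleen 26 members had one, and 0.0741% of 22947 genes passed, 0.0479% risen and 0.0261% fallen. An unadjusted p under 0.05 was reached by 2 members in brain, against 2.34% of all genes, and by 3 in spleen, against 4.7%. In brain these were Slco4a1, a thyroid hormone carrier gene, with -0.41 ± 0.15, and Slco1a6 with 1.37 ± 0.69 in the authors' deposited table. Slco1a4, which works at the blood-brain barrier, had 0.16 ± 0.092 in the authors' deposited table. The abundant Slc22a17, Slc22a23 and Slco1c1 had -0.028 ± 0.099, 0.038 ± 0.063 and 0.037 ± 0.11 in the authors' deposited table. For Slc22a17 the interval of the difference spans -0.22 to 0.17, so a change as large as that of Slc22a19 in kidney lies outside it. In spleen the smallest p-values belonged to Slco5a1 with -0.50 ± 0.18, Slco1a6 with -2.54 ± 1.07 and Slc22a20 with 1.31 ± 0.62 in the authors' deposited table. The last pair had mean levels of 29.0 and 16.1 normalised counts. Slco2a1 and Slco2b1, the leading members of the spleen, had 0.14 ± 0.24 and -0.032 ± 0.12 in the authors' deposited table.

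Whether the genotype difference itself differed between organs was tested with Cochran's Q over all genes with a level of 10 or more in at least 2 organs, 35 of the members among them. It passed for Slc22a7 (adjusted p 1.52e-05) and Slco1b2 (adjusted p 0.00596), where 1.22% of 23049 genes passed. Slc22a7 was below 0 in liver (-1.27) and above 0 in kidney (0.24) in the authors' deposited table. The difference, kidney minus liver, was 1.51 ± 0.26 with an adjusted p of 1.74e-05 over all gene and organ pairs. For Slco1b2 the heart stood apart from brain (brain minus heart 6.15, adjusted p 0.0183) and from liver (heart minus liver -5.26, adjusted p 0.0429). These were 3 of 241 member pairs, against 0.223% of 192617 pairs over all genes.

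For the other called members this test did not pass. Slc22a26 was called in both kidney and liver, and its adjusted p by Cochran's Q was 0.167. By the z test, kidney minus liver was -2.43 ± 0.85 with an adjusted p of 0.372. For Slco1a1, kidney minus liver was -1.03 ± 0.31 with an adjusted p of 0.176, and the test over its 3 organs gave 0.0533. For Slc22a5, near the threshold in liver, kidney minus liver was -0.62 ± 0.19 (adjusted p 0.198). Since the organs came from the same mice, their estimates may be correlated, and the test treats them as independent.

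**Figure D5:**
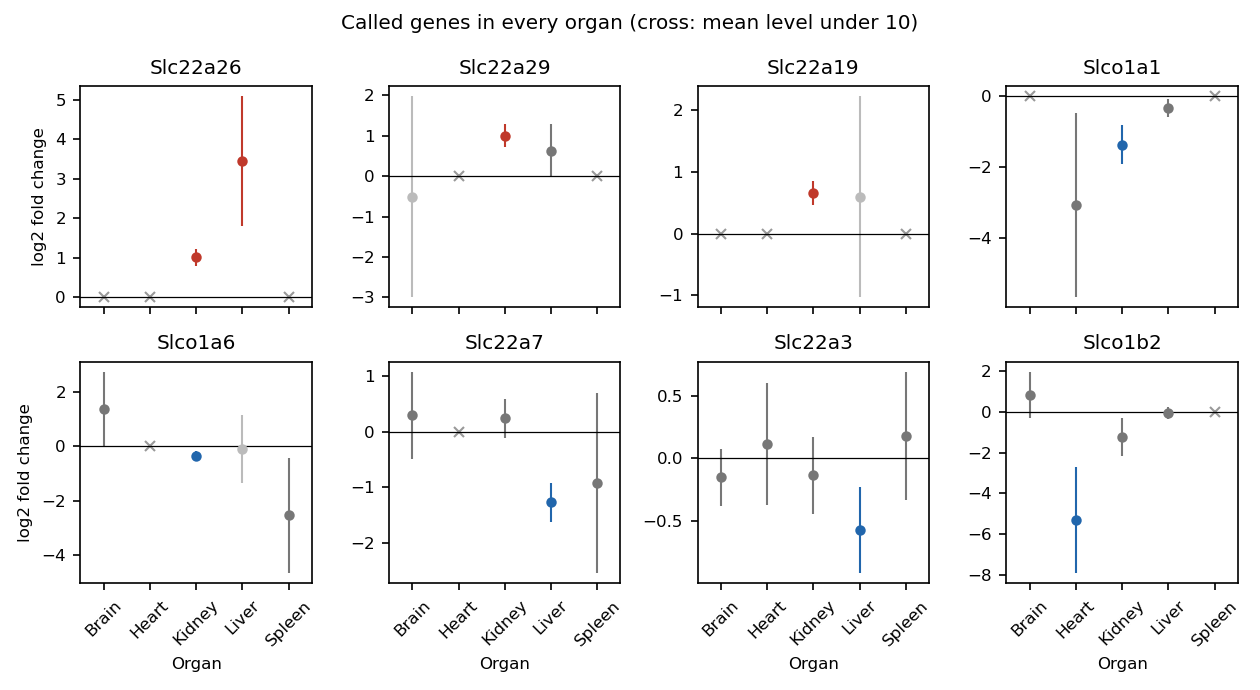
Log2 fold change (y axis, deficient minus wildtype, with 95% interval) of the 8 members called in any organ, across the 5 organs (x axis), with a separate scale for each gene. Red marks a rise and blue a fall at an adjusted p under 0.05, pale grey no adjusted p, and crosses mean levels under 10, drawn at 0 with no value. Slc22a7 lies below 0 in liver and spleen and above 0 in kidney and brain, with a call in liver alone, and Slco1b2 is lowest in heart.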

How the data were processed

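Poly-A RNA of whole brain, heart, kidney, liver and spleen from 3 Ftsj1_DF and 3 WT mice was sequenced, and the authors deposited 1 comparison table per organ. The submitters' processing notes name featureCounts, Subread 2.0.3, DESeq2 and the build GRCm39. Per the file headers, each deposited table holds the mean signal over 6 libraries as DESeq2 normalised counts, the log2 fold change and its standard error, the Wald score, the p-value and the adjusted p-value. Alignment settings, strand use and the treatment of reads that match several genes were not given in the sources used here. No counts per library were analysed here, so no model was refitted.

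The members and gene lists were chosen with earlier results of these data known. The tests are the authors' own: DESeq2's Wald test with Benjamini-Hochberg adjustment over all genes of a table, called under 0.05. The fold changes are not shrunk. P-values rest on 6 mice of 2 litters. No litter term in the authors' model is known, so differences between litters may not be accounted for. From the deposited values, implied genotype means were computed for equal groups of 3, ppm as the share of a table's summed mean level, levels per kilobase with exon lengths of GENCODE M21, and 95% intervals as 1.96 standard errors. Cochran's Q and z tests between organs were adjusted over all genes. Cochran's Q was tried on simulated data in which the organs were independent, and the z tests were not tried on such data. Genes named are all called members, the 3 of highest level and the 3 of smallest p per organ, and up to 4 called genes of a list per organ; others stand as values of neighbours or group members. A table row without a name took at most 0.000198% of the summed level and was left out. Values of 1 member and of some list genes are not reported here, though counts include them. Of the 18 lists only Tmlhe had no match by symbol. Analyses used Python 3.11.15, numpy 2.4.6, pandas 2.3.3, scipy 1.17.1, Biopython 1.88 and matplotlib 3.10.9.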

Additional observations from a re-analysis of the deposited data

Results flagged for a closer look

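Slc22a7 was singled out because its genotype difference was not the same in the organs tested (Cochran's Q, adjusted p 1.52e-05). It fell in liver (-1.27 ± 0.18) and had 0.24 ± 0.18 in kidney in the authors' deposited table. Slco1b2 was singled out on the same ground (adjusted p 0.00596), through its low value in heart at a mean level of 32.7 normalised counts.

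Slco6b1, a gene of the testis-related OATP group, was listed at 0 in the 5 poly-A tables and had a mean level above 0 in the 5 lncRNA tables, which no comparison above used. The authors' deposited table of lncRNAs gave mean levels of 145 normalised counts in brain, 41.5 in kidney, 33.2 in spleen, 29.2 in heart and 14.6 in liver. Its log2 fold change in brain was 0.22 ± 0.26 in the authors' deposited table, and it did not pass in brain, heart or spleen and had no adjusted p in kidney and liver. Why the gene stands above 0 in one table and not in the other was not tested.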

How the results depend on the processing

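No paired analysis was possible because the 2 genotypes share no mouse number and the tables hold no value per library. For the same reason leaving out each replicate in turn, other size factors and a litter block were not run. Of the calls per organ, those of kidney, brain and spleen stayed within 1.5 times of their count under every adjustment, threshold and centring run. The 2 falls of kidney became 3 at an adjusted p under 0.10, with Slc22a6 added. In heart the 1 fall became 0 at an adjusted p under 0.01. In liver, 2 members rose at an adjusted p under 0.10, with Slc22a5 added. Of the 2 falls in liver 1 was left without independent filtering, with adjustment over genes at a level of 10 or more, with adjustment over the 5 organs together, and at an adjusted p under 0.01. The 2 members that differed between organs became 1 at a minimum level of 100, where Slco1b2 in heart is no longer tested, and 1 each without heart, without kidney and without liver. Slc22a7 had an adjusted p of 0.133 without kidney and 1.00 without liver, and Slco1b2 had 0.392 without heart. No result changed direction under the settings run. With no depth or value per library, the deposited standard errors alone say what size of change could be seen. Large ones (Slc22a26 and Slc22a27 in liver, Slco1a1 in kidney, Slco1b2 in heart) could not be traced to mice.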

Other observations

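The members outside the comparisons' calls include the late OATP groups. Slco5a1, an OATP gene of brain, heart and spleen, stood at 15.0 ppm in heart, 8.59 ppm in spleen and 6.01 ppm in brain. It had log2 fold changes of -0.26 ± 0.16 in heart and -0.084 ± 0.14 in brain in the authors' deposited table, beside -0.50 ± 0.18 in spleen, and the difference between organs did not pass (adjusted p 0.988). Slco6d1, of a group known from testis, had 0.43 ± 0.30 in brain and 0.51 ± 0.47 in heart in the authors' deposited table.

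Marker lists of other cells gave these counts. In brain, choroid plexus markers had 0 of 10 passing (implied 949 ppm in wildtype and 809 ppm in deficient brain), brain endothelium markers 0 of 12 and meninges markers 0 of 10. In liver, the adipocyte markers Cfd and Cidec fell by 2.52 and 0.75, and Prlr, here listed with the choroid plexus, rose by 0.73 on the log2 scale in the authors' deposited table. In spleen, neutrophil markers were above 0 for 11 of 11 genes with 0 passing, and acinar markers stood at an implied 36088 ppm in wildtype and 46640 ppm in deficient tissue. Endothelium markers had 0 of 10 passing in each organ.

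In kidney, the hepatocyte markers Ttr, Serpina1a and Apoh fell by 1.14, 1.08 and 0.96 while Fga rose by 0.59 on the log2 scale in the authors' deposited table, with Serpina1a uncertain for its near-identical copies, and the other 14 of 18 did not pass, had no adjusted p or were listed at 0. Clic6, listed with Ttr among the choroid plexus markers, fell by 1.16 in kidney in the authors' deposited table. Of the bile acid synthesis genes, Cyp7b1 had 0.45 ± 0.12 and Amacr -0.33 ± 0.094 in kidney in the authors' deposited table, both called. Of the genes listed as male-biased in liver, Elovl3 rose by 3.65 and C4a fell by 0.91 in kidney in the authors' deposited table. Acot3, listed as female-biased in liver, rose by 0.63 in kidney in the authors' deposited table. In liver, Slc16a1 rose by 0.67, Gatm rose by 0.60, Slc13a4 fell by 1.34 and Arg1 fell by 0.39 in the authors' deposited table. S100a8 and S100a9 rose by 0.99 and 0.88 in liver in the authors' deposited table. In heart, 4 of 11 neutrophil markers rose, Lep fell by 4.92 and the bile acid efflux gene Slc51a rose by 1.45 in the authors' deposited table.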
